A study of Mus musculus with 12 samples.

Results

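The constitutive androstane receptor (CAR, encoded by Nr1i3), the pregnane X receptor (PXR, encoded by Nr1i2) and well-known genes of the xenobiotic response downstream of them were followed across mouse livers that differed in Adeno-Cre or Adeno-GFP injection and in feeding. Members were named genes, and a probe set was used if it named exactly 1 gene and that gene was a member. Of the 10 listed genes 9 were measured, by 11 of the 23521 probe sets that named 1 gene: Nr1i3, Nr1i2, Cyp2b10, Cyp3a11, Cyp1a2, Abcc3 and Slco1a4 with 1 probe set each, and Cyp2c55 and Cyp2c29 with several. Por, the electron donor of microsomal cytochromes P450, was not analysed here. The livers came from male mice aged 2 months, labelled C57Bl/6N, in which Trp53 carried loxP sites (Trp53tm1Brn, p53 fl/fl). Every mouse received an adenovirus through the tail vein at equal titers, expressing Cre recombinase or GFP, and 3 days later was either fasted for 24 hours or fed chow ad libitum. The groups, with 3 arrays each, were Adeno-Cre fasted, Adeno-Cre fed, Adeno-GFP fasted and Adeno-GFP fed. The floxed allele and the virus were therefore shared by all groups, and Adeno-Cre could delete Trp53 only in cells that the virus reached. Trp53 itself was not analysed here, so the injection labels were not checked on the targeted gene.

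CAR and PXR are nuclear receptors that sense drugs, bile acids and other lipophilic compounds, bind DNA with the retinoid X receptor and switch on genes for oxidation, conjugation and transport. In mouse liver Cyp2b10 is the classic CAR target and Cyp3a11 the classic PXR target, and hepatocytes near the central vein carry much of this programme. CAR is also known to take part in the response of mouse liver to fasting.

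Affymetrix arrays measured total liver RNA, and values are log2 intensities after robust multi-array averaging (RMA), so a difference of 1 is a doubling of intensity. Array medians lay between 6.26 and 6.33, and arrays of 1 group correlated at 0.991 to 0.994. A level close to an array's median or under it was called dim. Levels were not compared between genes, since probe sets differ in brightness. Differences were tested with limma over all 23521 probe sets, with Benjamini-Hochberg adjustment and a threshold of 0.05. Nothing in the labels says that arrays of a group came from separate animals beyond their numbering, so p-values measure only the spread between these arrays. Livers were measured whole, so fewer cells of a type and less RNA per cell cannot be told apart. The 9 measured hepatocyte markers averaged 12.1 to 12.2 in Adeno-Cre livers and 12.3 in Adeno-GFP livers, and none passed the test in any comparison.

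Adeno-Cre was set against Adeno-GFP within each diet. In fed livers CAR itself (Nr1i3) and the efflux transporter Abcc3 fell, at 0.593 and 0.697 times their Adeno-GFP level. In fasted livers the P450 gene Cyp2c55 rose 2.97-fold on 1 of its probe sets. Averaged over the diets, Nr1i3, Abcc3 and Cyp1a2 fell and Cyp2c55 rose, while Nr1i2, Cyp2b10, Cyp2c29, Cyp3a11 and Slco1a4 did not pass the test. In fasted livers 1 of 11 probe sets passed, as higher, beside 2.78% of all probe sets (2.31% higher and 0.472% lower). In fed livers 2 of 11 passed, both lower, beside 1.38% of all (0.995% higher and 0.383% lower). On the average 4 of 11 passed, 1 higher and 3 lower, beside 5.62% of all (3.61% higher and 2.01% lower). The median log2 difference of the 11 probe sets was 0.036 in fasted livers and -0.21 in fed livers, beside -0.033 and -0.018 over all probe sets. The arrays of the injections did not overlap for 2 of 11 probe sets in fasted livers and 5 of 11 in fed livers, beside 21.1% and 19.9% of all probe sets. The 5 include the dim Cyp2c29 probe set 17359285, which differed by 0.53, whereas the bright 17359287 differed by -0.15 and overlapped.

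**Figure D1:**
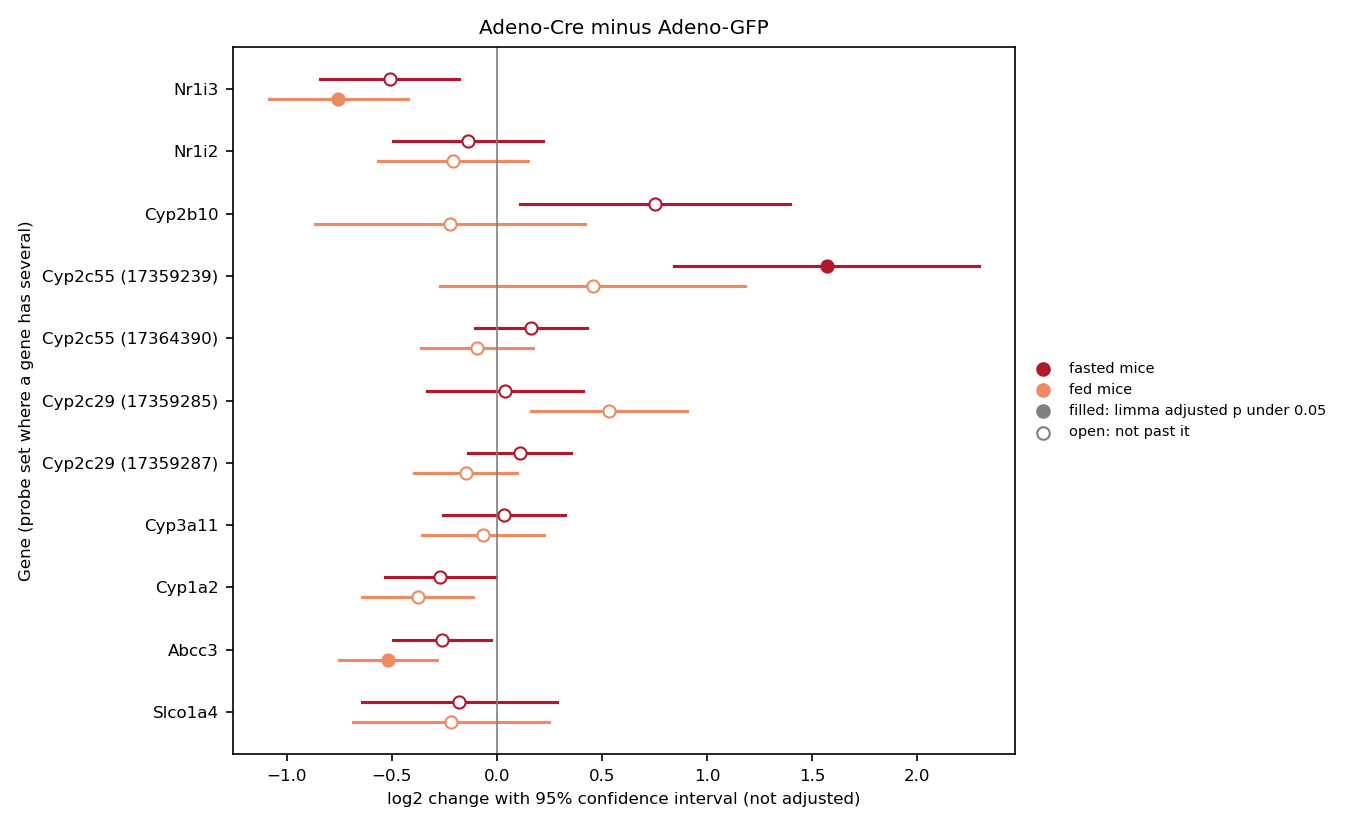
Log2 difference of Adeno-Cre minus Adeno-GFP for each of the 11 probe sets (rows), in fasted and in fed livers, with 95% confidence intervals from limma and filled points for adjusted p under 0.05. Nr1i3 and Abcc3 lie left of 0 in both diets and are filled in fed livers, and Cyp2c55 (17359239) lies right of 0 and is filled in fasted livers.

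Fasting for 24 hours was set against feeding after each injection. The uptake transporter Slco1a4 rose 2.66-fold after Adeno-Cre and 2.59-fold after Adeno-GFP, and Cyp1a2 fell to 0.567 and 0.526 times its fed level. After Adeno-Cre, Cyp2b10 rose 2.92-fold and Abcc3 rose 1.44-fold. After Adeno-GFP, Cyp2c55 fell to 0.178 times and Cyp2c29 to 0.661 times the fed level, each on 1 of its probe sets. Of the 11 probe sets 4 passed after Adeno-Cre, 3 higher and 1 lower, beside 2.61% of all probe sets (1.48% higher and 1.14% lower). After Adeno-GFP 4 passed, 1 higher and 3 lower, beside 3% of all (1.19% higher and 1.81% lower). The median log2 difference of the 11 was 0.019 after Adeno-Cre and 0.23 after Adeno-GFP, beside 0.000013 and 0.012 over all probe sets. The median after Adeno-GFP was the value of the dim Cyp2c29 probe set 17359285. There 6 of the 11 differences were above 0 and 5 below. Fasted and fed arrays did not overlap for 9 of 11 probe sets after Adeno-Cre and 8 of 11 after Adeno-GFP, beside 21% and 22.3% of all. The 9 include both probe sets of Cyp2c29, of which 17359285 was dim, and the 8 include both probe sets of Cyp2c55. The Adeno-Cre and the fasting comparisons share arrays, so their values are given side by side and were not correlated.

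**Figure D2:**
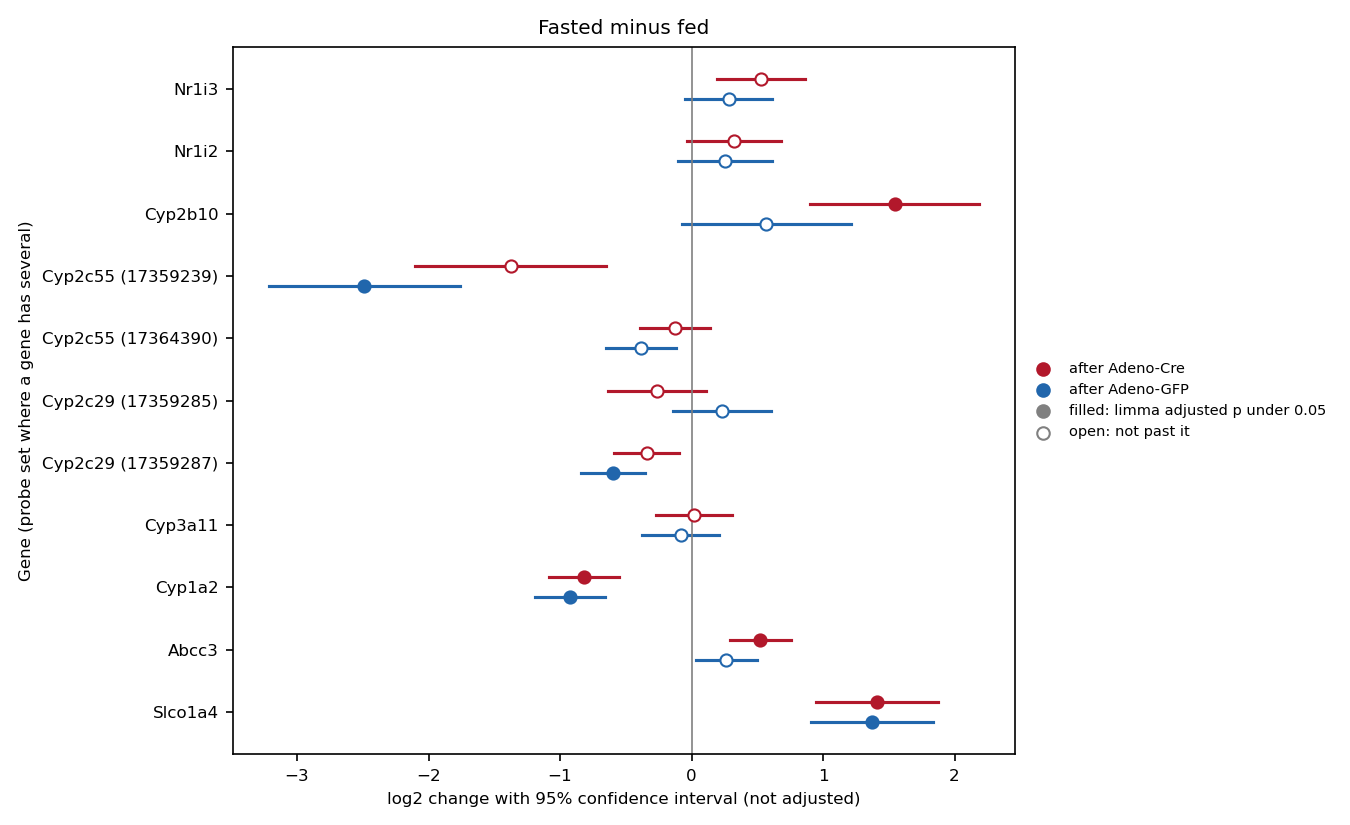
Log2 difference of fasted minus fed livers for each of the 11 probe sets (rows), after Adeno-Cre and after Adeno-GFP, with 95% confidence intervals from limma and filled points for adjusted p under 0.05. Slco1a4 is filled on the right and Cyp1a2 on the left after both injections, while Cyp2c55 (17359239) shows the widest gap between the injections, with an interaction of 1.11 that did not pass.

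Whether fasting acted differently after the injections was tested as an interaction, the fasting difference after Adeno-Cre minus that after Adeno-GFP. None of the 11 probe sets and 0 of all 23521 passed in limma, while 1776 of all (7.55%) had an unadjusted p under 0.05. Among the members that unadjusted level was reached by Cyp2c55, with an interaction of 1.11 (SE 0.47, unadjusted p = 0.036, adjusted p = 0.648), and by Cyp2b10, with 0.98 (SE 0.42, unadjusted p = 0.037, adjusted p = 0.65). A call after 1 injection and none after the other is therefore not shown to be a difference between them for any member.

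Promoters are shown for 6 members whose levels moved or that are central to the response, to put the letters upstream of the genes beside their values. They are 160 bases before the transcript start of RefSeq on GRCm38.p6, read along the gene's strand. For Cyp2b10, Cyp1a2 and Cyp3a11 that start is also the outer end of the gene in RefSeq's gene table, whereas the gene begins 36 bases further upstream for Nr1i3, 79 for Cyp2c55, 41 for Cyp2c29, 64 for Slco1a4 and 25 for Nr1i2. Windows and distances of these 5 genes hold for the start used here. An entry was matched by symbol for 8 of the 9 measured genes. Capitals mark TATAAA, the TATA box, and AGGTCA or AGTTCA, the single sites of nuclear receptors, searched on both strands.
Nr1i3, chr1:171213810-171213969, plus strand: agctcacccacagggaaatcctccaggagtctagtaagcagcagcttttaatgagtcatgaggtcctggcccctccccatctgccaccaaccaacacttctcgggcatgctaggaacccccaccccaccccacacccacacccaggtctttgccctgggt
Cyp2b10, chr7:25897498-25897657, plus strand: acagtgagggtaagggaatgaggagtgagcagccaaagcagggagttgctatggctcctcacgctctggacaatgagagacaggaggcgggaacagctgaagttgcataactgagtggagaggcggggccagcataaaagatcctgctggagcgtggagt
Cyp2c55, chr19:39006859-39007018, plus strand: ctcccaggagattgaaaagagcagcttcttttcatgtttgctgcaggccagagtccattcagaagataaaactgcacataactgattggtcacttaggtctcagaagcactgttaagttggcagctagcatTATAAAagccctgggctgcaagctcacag
Cyp2c29, chr19:39286925-39287084, plus strand: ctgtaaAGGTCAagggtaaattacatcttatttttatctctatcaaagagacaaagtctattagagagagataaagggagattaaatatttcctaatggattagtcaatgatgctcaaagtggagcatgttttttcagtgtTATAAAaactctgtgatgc
Cyp1a2, chr9:57683656-57683815, minus strand: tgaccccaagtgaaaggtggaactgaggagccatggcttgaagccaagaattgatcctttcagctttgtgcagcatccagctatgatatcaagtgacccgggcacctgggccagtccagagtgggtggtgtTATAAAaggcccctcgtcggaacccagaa
Slco1a4, chr6:141856221-141856380, minus strand: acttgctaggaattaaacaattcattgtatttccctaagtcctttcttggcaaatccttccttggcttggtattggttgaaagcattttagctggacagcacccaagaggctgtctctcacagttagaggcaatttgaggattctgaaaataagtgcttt
TATAAA stood 29 bases before the start of Cyp2c55, 19 before that of Cyp2c29 and 29 before that of Cyp1a2, counted to its first base, and 8.01% of the 32851 promoters of the table hold it in this window. Counted from the outer end of the gene, the TATAAA of Cyp2c55 and Cyp2c29 lies inside the gene and not before it. AGGTCA was found in Cyp2c29, 154 bases before the start, and in 9.14% of all promoters. AGTTCA was found in Cyp3a11 alone among the 8 and in 7.23% of all promoters. The paired sites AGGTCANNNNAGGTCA, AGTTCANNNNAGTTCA and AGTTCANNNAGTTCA were in no member's window and in 0.0152%, 0.00304% and 0% of all. These matches describe letters in a short window and say nothing of binding.

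Nr1i3 (probe set 17219231) fell with Adeno-Cre in fed livers, and its difference in fasted livers had the same direction and did not pass. Its log2 levels were 10.12, 9.92 and 9.85 in Adeno-Cre fed livers, against 10.77, 10.74 and 10.63 in Adeno-GFP fed livers. In fasted livers they were 10.47, 10.73 and 10.27 with Adeno-Cre, against 10.78, 11.36 and 10.86 with Adeno-GFP. The arrays of the injections did not overlap in either diet, and the 3 Adeno-Cre fed arrays were the lowest of all 12. The log2 difference was -0.75 (SE 0.15, adjusted p = 0.0349) in fed livers and -0.51 (SE 0.15, adjusted p = 0.108) in fasted livers. Averaged over the diets Nr1i3 fell by 0.63 on the log2 scale (SE 0.11, adjusted p = 0.00447). That average passed without each of the 12 arrays in turn, with adjusted p at most 0.0148, whereas the fed call ended without any 1 of the 6 fed arrays and also without Adeno-Cre fasted replicate 1, which is outside that comparison but adds to the shared estimate of spread. Fasting gave differences of 0.53 after Adeno-Cre (SE 0.15, adjusted p = 0.0974) and 0.28 after Adeno-GFP (SE 0.15, adjusted p = 0.387), neither of which passed. Nr1i3 averaged 10.49 ± 0.23 in Adeno-Cre fasted and 9.96 ± 0.14 in Adeno-Cre fed livers, and 11 ± 0.32 in Adeno-GFP fasted and 10.72 ± 0.07 in Adeno-GFP fed livers (SD, n = 3 each). From low to high the order was Adeno-Cre fed, Adeno-Cre fasted, Adeno-GFP fed and Adeno-GFP fasted. The middle groups of this order overlapped, and neither fasting difference between neighbours passed.

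Nr1i2 (17330323), the receptor PXR, did not pass in any comparison. Its log2 level averaged 8.82 ± 0.15 in Adeno-Cre fasted and 8.50 ± 0.23 in Adeno-Cre fed livers, and 8.96 ± 0.29 in Adeno-GFP fasted and 8.71 ± 0.23 in Adeno-GFP fed livers (SD, n = 3 each). The arrays of the injections overlapped in both diets. The difference with Adeno-Cre averaged over diets was -0.17 (SE 0.12), which did not pass. Nr1i2 and Nr1i3 were not tested against each other.

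**Figure D3:**
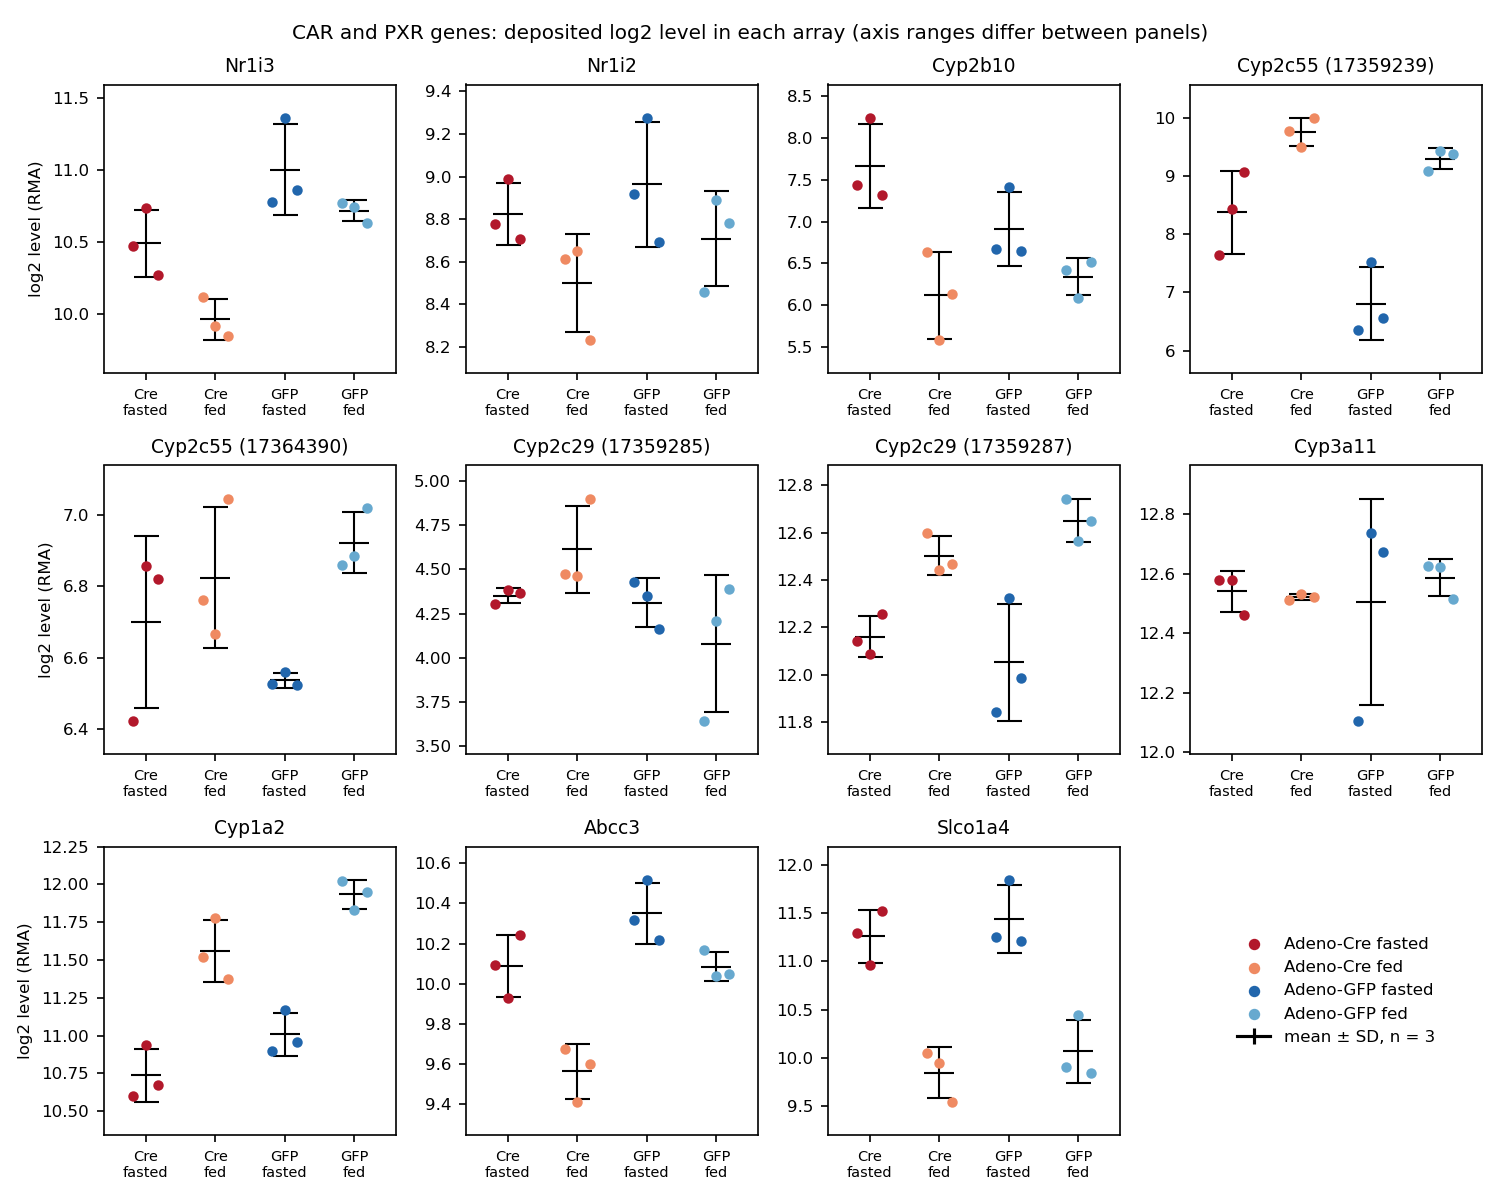
Log2 intensity of each member probe set (panels) in the 12 arrays, by group, with points for arrays and bars for the mean ± SD of 3 arrays, on an axis of its own range in each panel. Nr1i3 is lowest in the 3 Adeno-Cre fed arrays, Slco1a4 is higher in every fasted array than in any fed array, and Cyp1a2 is lower in every fasted array than in any fed array.

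Cyp2b10 (17475360), the P450 used as the readout of CAR activity in mouse, rose with fasting after Adeno-Cre. Its log2 levels there were 7.44, 8.24 and 7.32 in fasted livers, against 6.63, 5.59 and 6.14 in fed livers. After Adeno-GFP they were 6.67, 7.42 and 6.65 in fasted livers, against 6.42, 6.09 and 6.52 in fed livers. Fasted and fed arrays did not overlap after either injection, and the Adeno-Cre fed mean of 6.12 was under the lowest array median. The fasting difference was 1.55 after Adeno-Cre (SE 0.30, adjusted p = 0.0182) and 0.57 after Adeno-GFP (SE 0.30, adjusted p = 0.37). The call after Adeno-Cre ended without Adeno-Cre fasted replicate 2 or Adeno-Cre fed replicate 2 or 3, with adjusted p up to 0.0667. Between the injections Cyp2b10 differed by 0.75 in fasted livers (SE 0.30, adjusted p = 0.219) and by -0.23 in fed livers (SE 0.30, adjusted p = 0.834). CAR's own level was lower with Adeno-Cre in the same fasted livers, by a difference that did not pass.

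Cyp2c55, a P450 that acts on arachidonic acid and responds to CAR and PXR activators, had 2 probe sets that disagreed in size and, with Adeno-Cre in fed livers, in direction. On 17359239 its log2 levels were 7.64, 8.43 and 9.06 in Adeno-Cre fasted livers, against 6.36, 7.52 and 6.56 in Adeno-GFP fasted livers. In fed livers they were 9.77, 9.50 and 9.99 with Adeno-Cre, against 9.09, 9.43 and 9.37 with Adeno-GFP. The injections did not overlap in either diet, and after both injections every fasted array lay under every fed array. The Adeno-Cre difference was 1.57 in fasted livers (SE 0.33, adjusted p = 0.026) and 0.46 in fed livers (SE 0.33, adjusted p = 0.651). Averaged over the diets it was 1.01 (SE 0.24, adjusted p = 0.0261). The fasted call ended without replicate 2 or 3 of the Adeno-Cre fasted livers or replicate 1 or 3 of the Adeno-GFP fasted livers, with adjusted p up to 0.103, and the average lost its call without 7 of the 12 arrays.

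With fasting, Cyp2c55 fell after Adeno-GFP on 17359239 by more than any other member there. The difference was -2.49 after Adeno-GFP (SE 0.33, adjusted p = 0.00241), which passed without each array of that comparison in turn. After Adeno-Cre it was -1.38 (SE 0.33, adjusted p = 0.0514), which did not pass and passed without Adeno-Cre fasted replicate 3, at -1.72 (adjusted p = 0.0196). The other probe set, 17364390, was dim, with levels of 6.42 to 7.04 over all 12 arrays, and passed in no comparison. Its Adeno-Cre difference was 0.16 in fasted livers, -0.097 in fed livers and 0.033 on the average (SE 0.12, 0.12 and 0.087). It differed by -0.12 with fasting after Adeno-Cre and by -0.38 after Adeno-GFP (SE 0.12, adjusted p = 0.125).

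Cyp2c29, an abundant epoxygenase of mouse liver that responds to CAR activators, fell with fasting after Adeno-GFP on its bright probe set 17359287. Log2 levels there were 11.85, 12.32 and 11.99 in fasted livers, against 12.74, 12.56 and 12.65 in fed livers. After Adeno-Cre they were 12.14, 12.09 and 12.26 in fasted livers, against 12.60, 12.44 and 12.47 in fed livers. Fasted arrays lay under fed arrays after both injections. The difference was -0.60 after Adeno-GFP (SE 0.11, adjusted p = 0.0156) and -0.34 after Adeno-Cre (SE 0.11, adjusted p = 0.149). The call ended without Adeno-GFP fasted replicate 1 or 3 or Adeno-GFP fed replicate 1, with adjusted p up to 0.0631. The other probe set, 17359285, lay between 3.64 and 4.90, under every array median, and passed in no comparison. Cyp2c genes are close relatives in sequence, and cross-hybridization between their probe sets was not tested.

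Cyp3a11 (17455175), the main drug-metabolising P450 of the PXR programme, was bright and even. Its log2 level averaged 12.54 ± 0.07 in Adeno-Cre fasted and 12.52 ± 0.01 in Adeno-Cre fed livers, and 12.50 ± 0.35 in Adeno-GFP fasted and 12.59 ± 0.06 in Adeno-GFP fed livers (SD, n = 3 each). Adeno-GFP fasted replicate 1, at 12.11, was the lowest of the 12 arrays. No difference passed, and the 4 comparisons of pairs of groups gave values from -0.083 to 0.036 with SE 0.13. Changes of the size seen for Slco1a4 lie outside all 4 of their 95% confidence intervals, which reach from 0.772-fold to 1.25-fold.

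Cyp1a2 (17527581), a P450 best known as a target of the aryl hydrocarbon receptor and also raised by CAR activators, fell with fasting after both injections. Its log2 levels were 10.60, 10.94 and 10.67 in Adeno-Cre fasted livers, against 11.52, 11.78 and 11.37 in Adeno-Cre fed livers. After Adeno-GFP they were 10.90, 11.17 and 10.96 in fasted livers, against 12.02, 11.83 and 11.95 in fed livers. All 6 fasted arrays lay under all 6 fed arrays. The fasting difference was -0.82 after Adeno-Cre (SE 0.12, adjusted p = 0.00558) and -0.93 after Adeno-GFP (SE 0.12, adjusted p = 0.0022), and both calls held without each array of the comparison. With Adeno-Cre the difference was -0.27 in fasted and -0.38 in fed livers, neither of which passed, and -0.32 on the average (SE 0.09, adjusted p = 0.0486). The average lost its call without 10 of the 12 arrays, with adjusted p up to 0.111.

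Abcc3 (17267846), which exports conjugated drugs and bile acids from hepatocytes into blood, was lower with Adeno-Cre. Its log2 levels were 9.68, 9.41 and 9.60 in Adeno-Cre fed livers, against 10.17, 10.04 and 10.05 in Adeno-GFP fed livers. In fasted livers they were 10.09, 9.93 and 10.24 with Adeno-Cre, against 10.32, 10.52 and 10.22 with Adeno-GFP. The injections did not overlap in fed livers and overlapped in fasted livers. The difference was -0.52 in fed livers (SE 0.11, adjusted p = 0.0368) and -0.26 in fasted livers (SE 0.11, adjusted p = 0.238). Averaged over the diets it was -0.39 (SE 0.08, adjusted p = 0.00977), which passed without each of the 12 arrays in turn, with adjusted p at most 0.0299. Like that of Nr1i3, the fed call ended without any 1 of the 6 fed arrays or without Adeno-Cre fasted replicate 1.

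Fasting raised Abcc3 after Adeno-Cre by 0.52 (SE 0.11, adjusted p = 0.025), and the difference after Adeno-GFP was 0.27 (SE 0.11, adjusted p = 0.234). The call after Adeno-Cre ended without Adeno-Cre fasted replicate 1 or 3 or Adeno-Cre fed replicate 2 or 3, with adjusted p up to 0.0844. Abcc3 was thus at its lowest, as Nr1i3 was, in the 3 Adeno-Cre fed arrays.

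Slco1a4 (17472364), which takes up bile acids and other organic anions and responds to PXR activators, rose with fasting after both injections. Its log2 levels were 11.29, 10.97 and 11.52 in Adeno-Cre fasted livers, against 10.05, 9.94 and 9.54 in Adeno-Cre fed livers. After Adeno-GFP they were 11.25, 11.85 and 11.22 in fasted livers, against 9.90, 10.45 and 9.85 in fed livers. All 6 fasted arrays lay above all 6 fed arrays. The fasting difference was 1.41 after Adeno-Cre (SE 0.21, adjusted p = 0.00599) and 1.37 after Adeno-GFP (SE 0.21, adjusted p = 0.00556), and both calls held without each array of the comparison. The interaction was 0.039 (SE 0.30), and with Adeno-Cre the level differed by -0.18 in fasted and -0.22 in fed livers, neither of which passed.

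Other genes of the response were counted in lists of receptor partners, phase I enzymes, phase II enzymes, transporters, and genes of electron transfer and heme supply. The phase I list held further P450s and also Aldh1a1, Aldh1a7, Ces2a and Ephx1, which are not P450s. The phase II list held conjugating enzymes and also Nqo1, Ugdh and Papss2, which are not themselves conjugating enzymes. Of 16 measured receptor partners, Egfr, whose signalling holds CAR inactive, fell by 0.60 on the log2 scale with Adeno-Cre in fasted livers, and Hsp90aa1, a chaperone that retains CAR in the cytoplasm, rose by 0.35 in fed livers. No other partner passed in those comparisons. With fasting the coactivator Ppargc1a rose by 0.78 after Adeno-Cre and 0.80 after Adeno-GFP, and Egfr fell by 1.08 and 0.67. Hnf4a, a hepatocyte factor that drives Nr1i3 expression, rose by 0.60 after Adeno-GFP and differed by 0.24 after Adeno-Cre, which did not pass. Without each array in turn the partners called ranged from 0 to 1 with Adeno-Cre in each diet, the fed call ending without any 1 of the 6 fed arrays or Adeno-Cre fasted replicate 2, and from 1 to 3 with fasting after each injection.

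Of 26 phase I enzymes measured, 1 rose and 2 fell with Adeno-Cre in fasted livers, and 0 rose and 2 fell in fed livers. Cyp2c54 fell in both, by 0.67 in fasted and 0.56 in fed livers. Cyp2c70, which makes muricholic acids in mouse, rose by 0.67 in fasted livers, where Cyp3a13 fell by 0.34. Cyp2c69, dim with group means of 6.14 to 6.85, fell by 0.71 in fed livers. With fasting 3 rose and 2 fell after Adeno-Cre, and 2 rose and 2 fell after Adeno-GFP. Cyp3a25 rose by 1.32 after Adeno-Cre, Cyp2c39 rose by 0.45 after Adeno-Cre and 0.56 after Adeno-GFP, and Cyp2c70 fell by 0.60 and 1.22. Median differences of the list were 0.062 and -0.15 with Adeno-Cre in fasted and fed livers, and 0.11 and -0.088 with fasting after Adeno-Cre and Adeno-GFP. The count with fasting after Adeno-Cre was 0 without Adeno-Cre fasted replicate 1 or 2 or Adeno-Cre fed replicate 1 or 3, that after Adeno-GFP was 1 without Adeno-GFP fed replicate 2 and 2 without Adeno-GFP fasted replicate 2 or 3 or Adeno-GFP fed replicate 1, and that with Adeno-Cre in fed livers ranged from 0 to 2 without each array in turn.

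Of 19 phase II enzymes measured, 4 rose and 0 fell with Adeno-Cre in fasted livers, and none passed in fed livers. The glutathione transferase Gstm3 rose by 1.80, the quinone reductase Nqo1 by 0.68, the glucuronosyltransferase Ugt2b35 by 0.54 and Ugdh, which supplies UDP-glucuronic acid, by 0.48. With fasting 3 rose and 3 fell after Adeno-Cre, and 3 rose and 6 fell after Adeno-GFP. The log2 difference of Gstm3 with fasting was -1.01 after Adeno-Cre and -2.23 after Adeno-GFP, both past the test, so that, like Cyp2c55, it was lowest in Adeno-GFP fasted livers. The count with Adeno-Cre in fasted livers was 1 without Adeno-Cre fasted replicate 2, that with fasting after Adeno-Cre was 1 without Adeno-Cre fasted replicate 1, and that after Adeno-GFP was 2 without Adeno-GFP fed replicate 1.

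Among 12 other transporters the drug exporter Abcb1a rose by 0.82 with Adeno-Cre in fasted livers, and none passed in fed livers. That Abcb1a call ended without replicate 1 of the Adeno-Cre fasted livers or replicate 1 or 3 of the Adeno-GFP fasted livers. Differences with Adeno-Cre were below 0 for 10 of the 12 in fasted and 11 of the 12 in fed livers. Averaged over the diets Abcb1a rose by 0.61, Slco2b1 fell by 0.25 and Slc10a1 fell by 0.23. Without each array in turn the transporters called on that average ranged from 1 to 4. With fasting Slco1a1, an anion importer closely related to Slco1a4, fell by 0.72 after Adeno-Cre and 0.53 after Adeno-GFP, opposite to Slco1a4. The phospholipid exporter Abcb4 rose by 0.53 with fasting after Adeno-GFP. The transporters called there numbered 1 in place of 2 when an array was left out from Adeno-GFP fed livers, or replicate 2 or 3 from Adeno-GFP fasted livers, and 4 without Adeno-Cre fasted replicate 3.

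Of 13 genes of electron transfer and heme supply, 1 rose and 0 fell with Adeno-Cre in fasted livers, and none passed in fed livers. The riser was Cyb5b, a cytochrome b5 of the mitochondrial outer membrane, by 0.38, and its call ended without Adeno-Cre fasted replicate 1 or 2 or Adeno-GFP fasted replicate 1 or 3. With fasting 1 rose and 1 fell after Adeno-Cre, and 0 rose and 2 fell after Adeno-GFP. Cyb5b fell by 0.57 after Adeno-Cre and 1.05 after Adeno-GFP. Cpox, an enzyme of heme synthesis, rose by 0.47 after Adeno-Cre, and Cyb5r3, which reduces cytochrome b5, fell by 0.71 after Adeno-GFP. The count after Adeno-Cre was 1 without Adeno-Cre fasted replicate 2 or Adeno-Cre fed replicate 1 or 3.

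Of the 6 measured genes of the aryl hydrocarbon receptor list, none passed in limma in the 4 comparisons of pairs of groups, with 2, 0, 0 and 1 at an unadjusted p under 0.05 for Adeno-Cre in fasted and fed livers and for fasting after Adeno-Cre and Adeno-GFP. Arnt, the receptor's partner on DNA, rose by 0.23 with Adeno-Cre on the average over diets (adjusted p = 0.0371), a call that ended without any 1 of 10 of the 12 arrays. Cyp1a1, Cyp1b1 and Ahrr lay under the lowest array median in every group, Cyp1a1 at 5.94 to 5.99, so a fall of these genes may not be visible on the array.

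**Figure D4:**
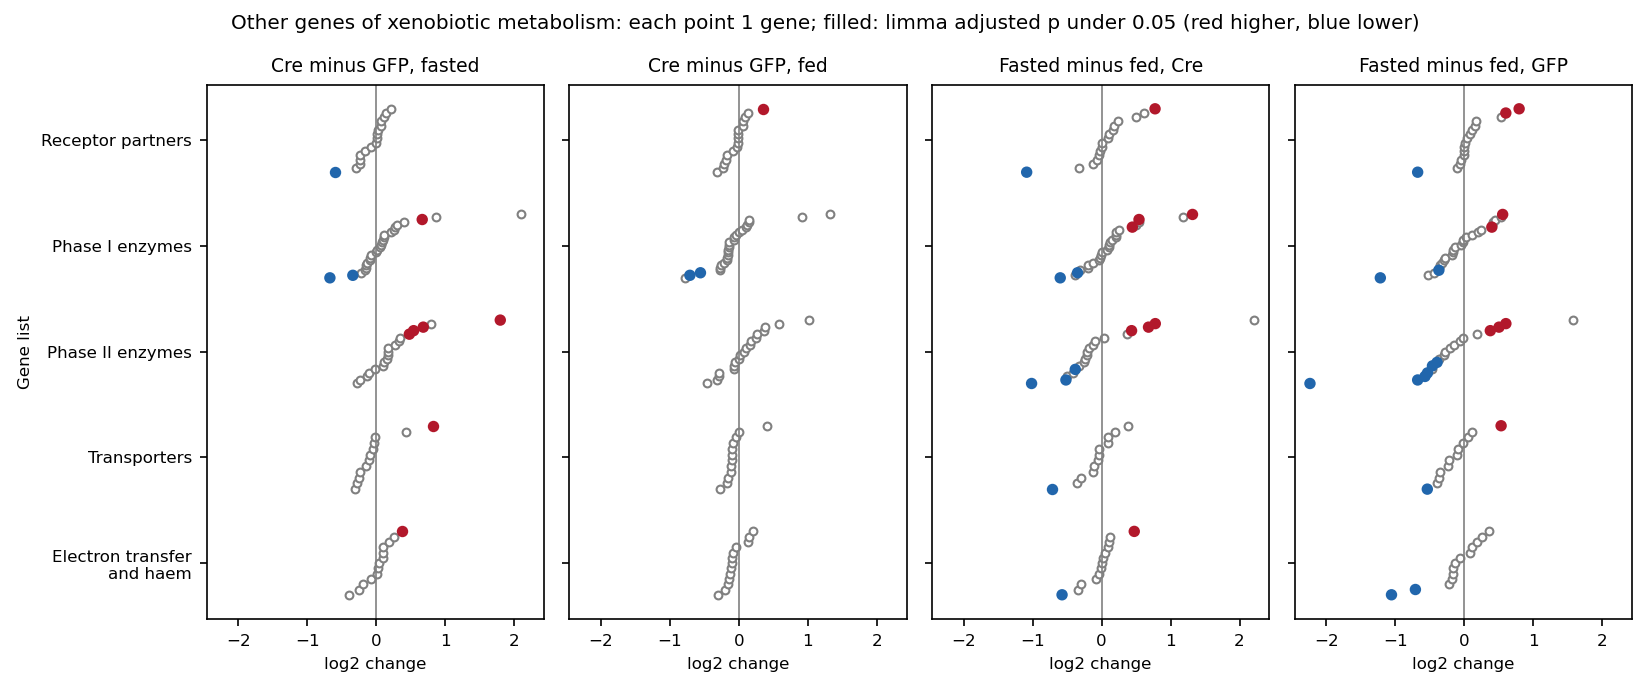
Log2 change of each gene of the 5 lists (rows, 1 point per gene) in 4 comparisons (panels), filled red for higher and blue for lower at limma adjusted p under 0.05. Phase II enzymes have 9 filled points of 19 with fasting after Adeno-GFP and none with Adeno-Cre in fed livers.

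Other gene groups moved in the same livers as CAR and its targets. Markers of hepatocytes near the central vein passed as lower with Adeno-Cre for 3 of 13 in fasted and 4 of 13 in fed livers, and 11 of 13 on the average over diets. Their mean log2 level lay between 9.46 and 9.50 in Adeno-Cre fasted livers, against 9.68 to 9.82 in Adeno-GFP fasted livers, and between 9.37 and 9.41 in Adeno-Cre fed livers, against 9.70 to 9.77 in Adeno-GFP fed livers. Neither pair of ranges overlapped, as for Nr1i3, and the same held for the periportal and the hepatocyte markers. Periportal markers averaged 11.16 to 11.27 in Adeno-Cre fasted livers, against 11.33 to 11.42 in Adeno-GFP fasted livers. In fed livers they averaged 10.78 to 11.03 with Adeno-Cre, against 11.04 to 11.17 with Adeno-GFP. Of 11 periportal markers 2 passed as higher and 4 as lower on the average over diets, and 9 of the 11 differences were below 0. Without each array in turn the pericentral counts ranged from 0 to 3 in fasted livers, from 0 to 5 in fed livers, where no fed array could be left out without losing at least 3 calls, and from 7 to 10 on the average. Their part in the fall of Nr1i3, Abcc3 and Cyp1a2 was not tested.

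Interferon-stimulated genes passed as higher with Adeno-Cre for 20 of 24 in fed livers and 2 of 24 in fasted livers. Their mean level lay between 9.29 and 10.09 in Adeno-Cre fed livers, against 8.04 to 8.41 in Adeno-GFP fed livers, the comparison in which Nr1i3 and Abcc3 fell. With fasting after Adeno-Cre 16 of 24 fell and none rose. The count in fed livers was 13 without Adeno-Cre fed replicate 1 or 3 and 4 without Adeno-GFP fed replicate 1 or 3, and that with fasting was 7 without Adeno-Cre fasted replicate 2 or Adeno-Cre fed replicate 1. Cell cycle genes passed as higher with Adeno-Cre for 23 of 23 in fasted and 9 of 23 in fed livers, at mean levels of 8.52 to 8.92 in Adeno-Cre fasted livers, against 6.55 to 7.47 in Adeno-GFP fasted livers. Their fed count ranged from 1, without Adeno-GFP fed replicate 3, to 15, without Adeno-GFP fasted replicate 1. The part of interferon-stimulated and cell cycle genes in the members' values was not tested.

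Markers of other liver cells were read in the same comparisons. Stellate cell markers had a lower mean level with Adeno-Cre, at 7.75 to 7.97 in Adeno-Cre fasted livers, against 8.08 to 8.16 in Adeno-GFP fasted livers, and at 7.99 to 8.10 in Adeno-Cre fed livers, against 8.26 to 8.27 in Adeno-GFP fed livers. Of 13 such markers 0 passed in fasted livers (7 at an unadjusted p under 0.05), 1 fell in fed livers, which was Rgs5, and 4 fell on the average over diets, which were Reln, Ecm1, Rgs5 and Hand2. The fed call ended without any 1 of the 6 fed arrays, and the average count was 1 or 2 without any 1 of 8 of the 12 arrays. With fasting Lrat and Col1a2 fell after both injections and Col3a1 after Adeno-Cre, and 1 call was left without some arrays of each comparison. Kupffer cell, endothelial and neutrophil markers gave 0 calls in limma with Adeno-Cre or with fasting. The difference with Adeno-Cre was below 0 for 11 of 12 Kupffer cell markers in fasted livers (1 at an unadjusted p under 0.05) and for 12 of 13 endothelial markers in fed livers (8 at that level). Without 1 array, 1 Kupffer cell marker passed in fasted livers in 2 of the 12 fits. Of 13 measured lymphocyte markers only Gzma, a granule protease of cytotoxic lymphocytes with dim levels of 5.56 to 6.62, passed with Adeno-Cre. It rose by 0.65 in fasted and 0.71 in fed livers. Differences with Adeno-Cre were below 0 for 8 of the 13 markers in fasted and 3 of the 13 in fed livers. The fasted call ended without any 1 of the 6 fasted arrays, and the fed call without any 1 of 6 of the 12 arrays. Averaged over the diets Gzma rose by 0.68 (limma adjusted p = 0.00164). The count of lymphocyte markers called on that average was 1 without each of the 12 arrays in turn. Of 16 measured acute phase genes only Saa3 passed with Adeno-Cre, rising by 1.99 in fasted and 1.63 in fed livers. Differences with Adeno-Cre were below 0 for 11 of the 16 in fasted and 10 of the 16 in fed livers. The fed call of Saa3 ended without any 1 of 4 fed arrays. Of 6 cholangiocyte markers 4 lay under the lowest array median in every group, and 1 of these, Krt7, fell by 0.37 on the average over diets. The part of these cells in the members' values was not tested.

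The genes whose levels over the 12 arrays were most like those of Nr1i3 were Cyb5a (Pearson r 0.965), Carm1 (0.962), Dpys (0.945), Cyp2d22 (0.941) and G6pc3 (0.940). For Cyp2b10 they were Aldh3a2 (0.922), Cycs (0.918), Rps6kb2 (0.900), Dnm1l (0.887) and Pex11a (0.887). Cyb5a averaged 11.15 in Adeno-Cre fasted and 11.02 in Adeno-Cre fed livers, and 11.34 in Adeno-GFP fasted and 11.22 in Adeno-GFP fed livers, the same order of groups as Nr1i3. Aldh3a2 averaged 12.17 in Adeno-Cre fasted and 11.70 in Adeno-Cre fed livers, and 11.94 in Adeno-GFP fasted and 11.72 in Adeno-GFP fed livers, the same order of groups as Cyp2b10. These correlations are descriptions over arrays of 4 groups, chosen as the highest among all named genes.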

How the data were processed

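Total RNA of mouse liver was hybridised to 12 Affymetrix arrays. Per the submitters' processing notes, the authors made the deposited log2 intensities with RMA; software versions and the array's genome build were unstated. This method scales arrays to 1 distribution, so a shift of all genes would not be seen. The number of arrays, 3 per group, limits the precision.

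Probe sets were named from the platform annotation: of 41345, 23521 named 1 gene and were used, 1814 named several and 16010 were unlisted; 23328 matched RefSeq's gene table by identifier. Probe sets of a gene were kept apart. Group means were fitted in limma 3.58.1 (R 4.3.3) over all 12 arrays with 8 residual degrees of freedom, and p-values were adjusted over the 23521 by Benjamini and Hochberg. The calculation was tested on simulated data.

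The members and lists were chosen with earlier results of these data known. Named genes were every member, up to 4 called genes per list and comparison by smallest p and any gene a result is set beside, and for Nr1i3 and Cyp2b10 the 5 most correlated named genes. Of the listed genes 25 were not analysed here. Alternatives were a replicate block, only the groups compared, dim probe sets left out, 1 probe set per gene, all probe sets, a trended robust variance, a second quantile normalization and leaving out each array.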

Additional observations from a re-analysis of the deposited data

How the results depend on the processing

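With 3 arrays per group, many calls sit near the threshold. Of 422 member values under settings other than leaving out an array, 406 kept their direction and side of the threshold, 13 lost a call, 3 gained one and 0 reversed. Values are given as Adeno-Cre against Adeno-GFP in fasted and in fed livers, then fasted against fed livers after Adeno-Cre and after Adeno-GFP. Without dim probe sets, 1012, 575, 1079 and 1225 of all probe sets passed, and Nr1i3 (adjusted p = 0.048) and Cyp2c55 (adjusted p = 0.0254) gained a call with fasting after Adeno-Cre. With a trended robust variance 1015, 528, 974 and 1084 passed. With only the groups compared 345, 142, 218 and 426 passed, and member calls were 0, 1 and 2 in the first 3 comparisons. There Cyp2c55 was at adjusted p = 0.11 in fasted livers, Abcc3 at 0.0608 in fed livers, Cyp2b10 at 0.0681 and Abcc3 at 0.0832 with fasting after Adeno-Cre, and Cyp2c29 at 0.0639 with fasting after Adeno-GFP. Over all probe sets of the table, more tests were adjusted for, and 91, 332 and 388 passed in the last 3 comparisons. Member calls were then 0 and 0 with Adeno-Cre in fasted and fed livers (Cyp2c55 adjusted p = 0.0682, Nr1i3 0.0947, Abcc3 0.0968), 2 on the average over diets (Cyp2c55 0.0656, Cyp1a2 0.0991) and 2 with fasting after Adeno-Cre (Cyp2b10 0.054, Abcc3 0.0624). The interaction called 1 probe set, not a member, without dim probe sets, with the trended robust variance and with 1 probe set per gene. The cause of these shifts was otherwise not tested.

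Replicate numbers showed no clear pairing of the arrays, though with 3 arrays per group a weak pairing could be missed. Correlations of same-numbered deviations ran from -0.101 to 0.154 and passed 0.1 in 3 of 18, and 5 of 12 arrays were closest to their own number. With the replicate number as a block, member calls with Adeno-Cre in fed livers were 1, Abcc3 reaching adjusted p = 0.0637, and Cyp2c55 passed with fasting after Adeno-Cre (adjusted p = 0.0418). The block changed no other member's call.

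Leaving out each array in turn, member calls ranged from 0 to 1 and calls over all probe sets from 368 to 912 with Adeno-Cre in fasted livers, from 0 to 2 and 27 to 341 in fed livers, and from 2 to 4 and 866 to 1484 on the average. With fasting they ranged from 2 to 6 and 220 to 760 after Adeno-Cre, from 3 to 4 and 282 to 756 after Adeno-GFP, and the interaction called 0 members and 0 to 1 of all. Of 528 member values 25 reversed, none of them called. With Adeno-Cre in fasted livers Nr1i2 ranged from -0.27 to 0.017, Cyp2c29 17359285 from -0.038 to 0.095, Cyp3a11 from -0.16 to 0.15 and Slco1a4 from -0.31 to 0.025. In fed livers Cyp2b10 ranged from -0.48 to 0.039. On the average Cyp2c55 17364390 ranged from -0.022 to 0.10, Cyp2c29 17359287 from -0.071 to 0.049 and Cyp3a11 from -0.12 to 0.043. With fasting after Adeno-Cre Cyp2c55 17364390 ranged from -0.20 to 0.015 and Cyp3a11 from -0.0008 to 0.058, and after Adeno-GFP Cyp3a11 ranged from -0.20 to 0.12. For the interaction Nr1i2 ranged from -0.066 to 0.23, Cyp3a11 from -0.098 to 0.22 and Slco1a4 from -0.15 to 0.24. Counts of list genes without each array were added after the data were seen. Intensities near the array medians, as for Cyp2b10 and Cyp2c55 17364390, may understate changes.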

Other observations

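Cyp2b9, a P450 closely related to Cyp2b10, known to respond to CAR activators and to be higher in female mice, was chosen after its values were seen. In fasted livers it averaged 8.95 ± 1.02 with Adeno-Cre and 6.86 ± 2.32 with Adeno-GFP, and in fed livers 7.78 ± 0.72 with Adeno-Cre and 6.46 ± 0.33 with Adeno-GFP (log2 level, SD, n = 3 each). The difference of 2.09 in fasted livers (SE 0.88, adjusted p = 0.253) did not pass. Cyp2a4, a P450 of the same phase I list, rose by 0.89 with Adeno-Cre on the average over diets (adjusted p = 0.0203). Sult1e1, which sulfates oestrogens and is known to respond to CAR activators, averaged 6.95 ± 0.50 in Adeno-Cre fasted and 4.74 ± 0.41 in Adeno-Cre fed livers, and 6.15 ± 1.81 in Adeno-GFP fasted and 4.57 ± 0.30 in Adeno-GFP fed livers. Its mean lay under the lowest array median in every group but Adeno-Cre fasted livers, and it passed in no comparison.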
